A study of Homo sapiens with 42 samples.

Results

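Forkhead transcription factors are DNA-binding regulators named after a shared winged-helix domain, and the family is sorted by letter into classes. Class A members are pioneer factors that open chromatin in endoderm and its derivatives, lung epithelium included, class O members are switched off by insulin and AKT signalling, and FOXM1 drives genes of mitosis. Many of the remaining members act in single embryonic tissues, and their CpG-rich promoters are textbook Polycomb targets, held by PRC2 (of which SUZ12 is a core subunit) and by PRC1, which attaches ubiquitin to a lysine of histone H2A (H2AK119ub). The human autosomal protein-coding genes were searched for symbols made of FOX, a letter other than P, and digits, optionally followed by a further letter and digits, and 44 of 19111 genes met that rule. FOXO4 and FOXR2, which lie on the X chromosome, and FOXO3B, whose symbol has no second set of digits, were left out.

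The chromatin profiles came from 2 human non-small-cell lung cancer lines. NCI-H661 cells carry endogenous DPPA2 and DPPA4, a pair of DNA-binding proteins normally found in early embryos and germ cells, and were profiled untreated for DPPA2, DPPA4, the CpG-island demethylase KDM2A, SUZ12, H2AK119ub, H3K27ac, H3K4me1, H3K36me2, H3K36me3 and H3K9me3 in 18 ChIP-seq libraries. NCI-H1299 cells of one stable sorted line carried FLAG-tagged DPPA2 and V5-tagged DPPA4 behind a doxycycline-responsive promoter and received doxycycline at 2 µg/mL (DOX) or water (control, CTRL) for 7 days. Both H1299 groups therefore carried the construct, and 20 H1299 libraries covered H2AK119ub, H3K27ac, H3K4me1, H3K36me3 and H3K9me3. Every mark had 2 replicates per group and KDM2A and SUZ12 had 1 library each. The labels do not say that replicates were separate cultures, so p-values measure the spread between these libraries only.

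A promoter ran from 1500 bp before to 1500 bp after the transcription start site (TSS), and a flank was what remained of the 20 kb to each side. A promoter was called for a mark when an enriched interval (an EPIC2 island for histone marks, a narrow peak for factors, both at a log2 fold over input above 1) touched it in every replicate. It was called DPPA2/4-bound when a consensus peak of both DPPA2 and both DPPA4 libraries touched it. Reads are ChIP reads summed over the whole islands that touch a promoter, and a library listed at 0 had no island there. Promoter windows of 5 of the 44 genes overlap that of another coding gene (FOXA1 with TTC6, FOXA3 with SYMPK, FOXH1 with PPP1R16A, FOXL2 with FOXL2NB and FOXM1 with RHNO1), and their calls cannot be told apart from those of the neighbour. In a call the islands of the replicates need not lie at the same place: they shared bases at all 21 H3K27ac and all 27 H2AK119ub promoters called in H661, but at only 4 of 10 and 6 of 9 called for H2AK119ub in control and DOX H1299, against 79.0% and 78.6% of all promoters so called.

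Islands held 1318183 to 6649708 reads in the 12 H661 histone libraries, 488201 to 6961886 in the 6 H661 factor libraries and 137991 to 3657645 in the 20 H1299 libraries. The H3K27ac library of DOX replicate 1 stood apart, with 2777360 reads in 49726 islands against 759619 to 979366 in 28105 to 35357 islands in the other H1299 H3K27ac libraries. H3K27ac was called at the DPPA2 and DPPA4 promoters in H661 and at neither in control H1299. It was called at 4 of 5 epithelial and cancer-line markers in H661 (EPCAM, VIM, KRT8 and KRT18, with CDH1 uncalled) and at 2 of 5 in control H1299 (VIM and KRT18). Of 6 lung-lineage markers only NKX2-1 was called in H661 and none in control H1299. Of 4 markers of other cell types PECAM1 was called in H661 and none in control H1299.

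The forkhead promoters were CpG-rich as a group. A CpG island lay at 42 of 44 (95.5%), against 73.2% of all coding promoters, and the exceptions were FOXN1, the thymic epithelial regulator, and FOXS1, expressed in the crest-derived perivascular lineage. The median GC content of the promoter window was 61.5% against 52.9%, and the median number of CpGs 199.5 against 116. RefSeq promoter sequences, which span 250 bases before to 50 bases after a gene's start, were matched for 33 of the 44 genes, but that of FOXN3 lies 201932 bp from the start site used for its calls and was left out. The median of the other 32 was 28.5 CG dinucleotides against 14 over 35116 RefSeq promoters, with 34 in 12 DPPA2/4-bound and 19 in 20 unbound forkhead promoters. The 20 unbound included FOXD4 and its near-identical FOXD4L copies, which are not separate observations. Each of these held between 2 and 16 CGs, below the unbound median. At least 1 CG, the only motif searched (C followed by G, which reads the same on both strands), was present in 96.0% of the RefSeq promoters, so its density rather than its presence differs between genes.

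The following sequences are printed 5′ to 3′ in the sense of each gene (build GRCh38.p14), with every CG in capitals. They were chosen as promoters that stand for different chromatin states in H661. FOXE1 (chr9:97852976-97853275, plus strand, 32 CG) had the strongest DPPA2 peak of the family, FOXD2 (chr1:47437794-47438093, plus strand, 32 CG) combined DPPA2/4, SUZ12 and H3K27ac, and FOXK2 (chr17:82519482-82519781, plus strand, 55 CG) had the strongest KDM2A peak. FOXF2 (chr6:1389326-1389625, plus strand, 26 CG) and FOXA1 (chr14:37595200-37595499, minus strand, 34 CG) carried Polycomb marks without H3K27ac, and FOXR1 (chr11:118971511-118971810, plus strand, 22 CG) had no DPPA2 or DPPA4 peak.
FOXE1: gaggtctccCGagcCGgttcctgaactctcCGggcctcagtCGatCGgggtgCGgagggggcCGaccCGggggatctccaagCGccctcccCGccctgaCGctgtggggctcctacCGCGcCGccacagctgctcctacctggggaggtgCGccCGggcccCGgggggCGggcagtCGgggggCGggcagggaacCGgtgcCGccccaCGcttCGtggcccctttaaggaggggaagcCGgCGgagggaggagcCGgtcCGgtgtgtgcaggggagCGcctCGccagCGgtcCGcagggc
FOXD2: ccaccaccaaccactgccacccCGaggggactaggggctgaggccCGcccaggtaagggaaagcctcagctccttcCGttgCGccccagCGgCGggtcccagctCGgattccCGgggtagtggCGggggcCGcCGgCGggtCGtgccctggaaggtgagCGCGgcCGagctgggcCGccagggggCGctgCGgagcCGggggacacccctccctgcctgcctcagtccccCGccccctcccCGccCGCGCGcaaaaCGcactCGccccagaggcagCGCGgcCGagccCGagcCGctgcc
FOXK2: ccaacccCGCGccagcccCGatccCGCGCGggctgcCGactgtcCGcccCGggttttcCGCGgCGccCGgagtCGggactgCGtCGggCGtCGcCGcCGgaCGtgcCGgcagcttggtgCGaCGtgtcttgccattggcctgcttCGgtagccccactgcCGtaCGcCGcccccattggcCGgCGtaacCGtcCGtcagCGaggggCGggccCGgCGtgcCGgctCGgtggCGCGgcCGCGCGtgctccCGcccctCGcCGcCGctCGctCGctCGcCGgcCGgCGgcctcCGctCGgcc
FOXF2: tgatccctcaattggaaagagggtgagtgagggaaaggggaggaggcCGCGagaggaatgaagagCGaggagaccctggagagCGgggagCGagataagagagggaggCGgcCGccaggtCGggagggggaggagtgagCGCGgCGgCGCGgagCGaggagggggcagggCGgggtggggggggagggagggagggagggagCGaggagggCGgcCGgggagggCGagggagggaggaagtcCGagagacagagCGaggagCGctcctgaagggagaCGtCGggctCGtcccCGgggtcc
FOXA1: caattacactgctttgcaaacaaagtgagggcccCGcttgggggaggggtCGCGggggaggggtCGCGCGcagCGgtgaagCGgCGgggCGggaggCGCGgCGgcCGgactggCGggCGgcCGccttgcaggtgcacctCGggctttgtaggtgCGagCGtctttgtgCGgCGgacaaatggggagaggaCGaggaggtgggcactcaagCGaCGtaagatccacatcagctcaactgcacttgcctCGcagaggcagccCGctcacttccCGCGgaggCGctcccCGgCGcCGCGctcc
FOXR1: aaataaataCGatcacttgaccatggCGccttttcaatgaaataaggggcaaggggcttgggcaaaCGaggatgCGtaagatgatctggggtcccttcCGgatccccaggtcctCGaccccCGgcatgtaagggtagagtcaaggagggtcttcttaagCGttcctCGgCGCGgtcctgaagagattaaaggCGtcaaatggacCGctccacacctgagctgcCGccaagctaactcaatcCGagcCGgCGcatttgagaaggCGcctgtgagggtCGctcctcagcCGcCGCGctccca
Of all RefSeq promoters, 99.6% held fewer CGs than that of FOXK2, 84.4% fewer than FOXA1, 81.1% fewer than FOXE1 and FOXD2, 69.9% fewer than FOXF2 and 62.3% fewer than FOXR1. FOXA1, which was not DPPA2/4-bound, thus held more CGs in this window than FOXE1 and FOXD2, which were.

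In H661 the family was marked by Polycomb more often and by H3K27ac less often than coding promoters in general. SUZ12 was called at 25 of 44 forkhead promoters against 15.8% of all promoters and 19.2% of CpG-island promoters. H2AK119ub was called at 27 of 44 against 25.1% of all and 30.2% of CpG-island promoters, and both marks together at 19 of 44 against 12.1%. H3K27ac was called at 21 of 44 against 59.2% of all and 75.5% of CpG-island promoters. DPPA2/4 bound 18 of 44, against 27.2% of all promoters, and 17 of the 42 with a CpG island, against 36.03% of all CpG-island promoters. These shares describe a group of genes chosen by name and were not tested.

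**Figure D1:**
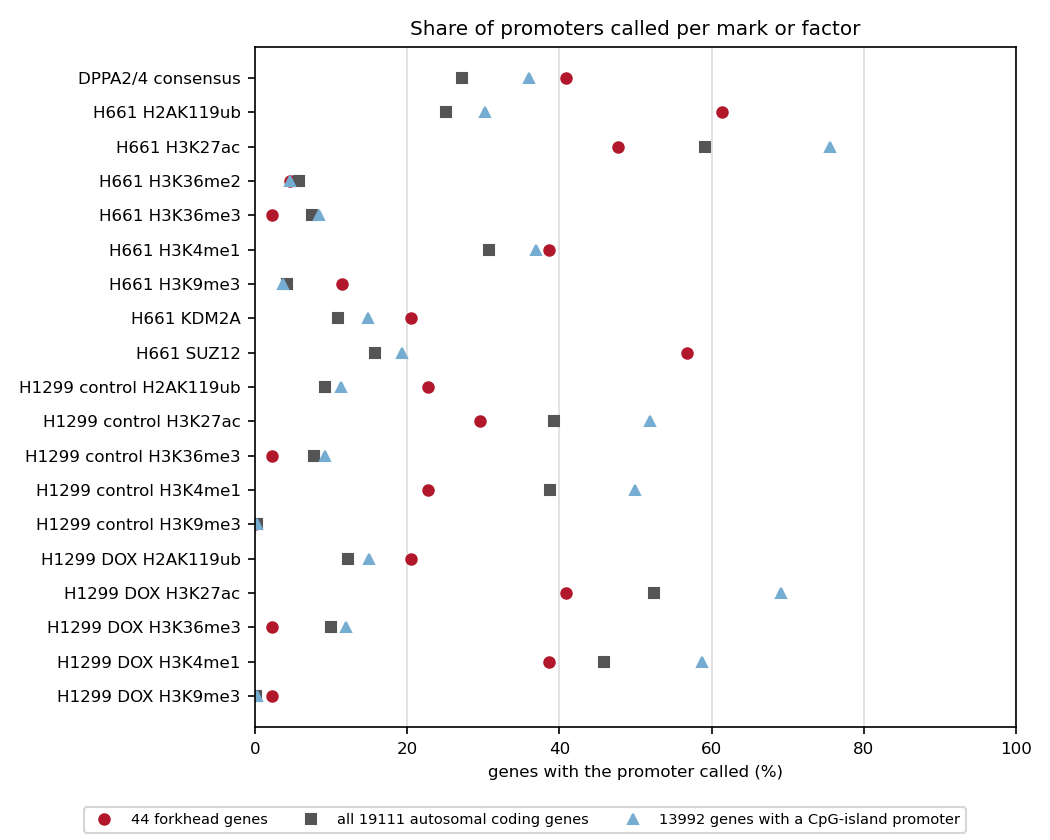
Share of promoters called (x axis, percent of genes) for each mark or factor and cell group (y axis), for the 44 forkhead genes (circles), all 19111 autosomal coding genes (squares) and the 13992 genes with a CpG-island promoter (triangles). The forkhead circle lies to the right of both other symbols for SUZ12, for H2AK119ub in each group and for DPPA2/4, and to the left of both for H3K27ac in each group.

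Of the other marks, KDM2A was called at 9 of 44 (10.9% of all promoters), H3K4me1, the methylation of enhancers and promoter shoulders, at 17 of 44 (30.8%) and H3K9me3, a mark of heterochromatin, at 5 of 44 (4.22%). H3K36me2 was called at 2 of 44, FOXJ1 and FOXS1 (5.75% of all), and H3K36me3, laid down over transcribed gene bodies, at 1 of 44 (7.43% of all). The calls of 43 genes in every library are mapped in the grid of promoter calls.

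**Figure D2:**
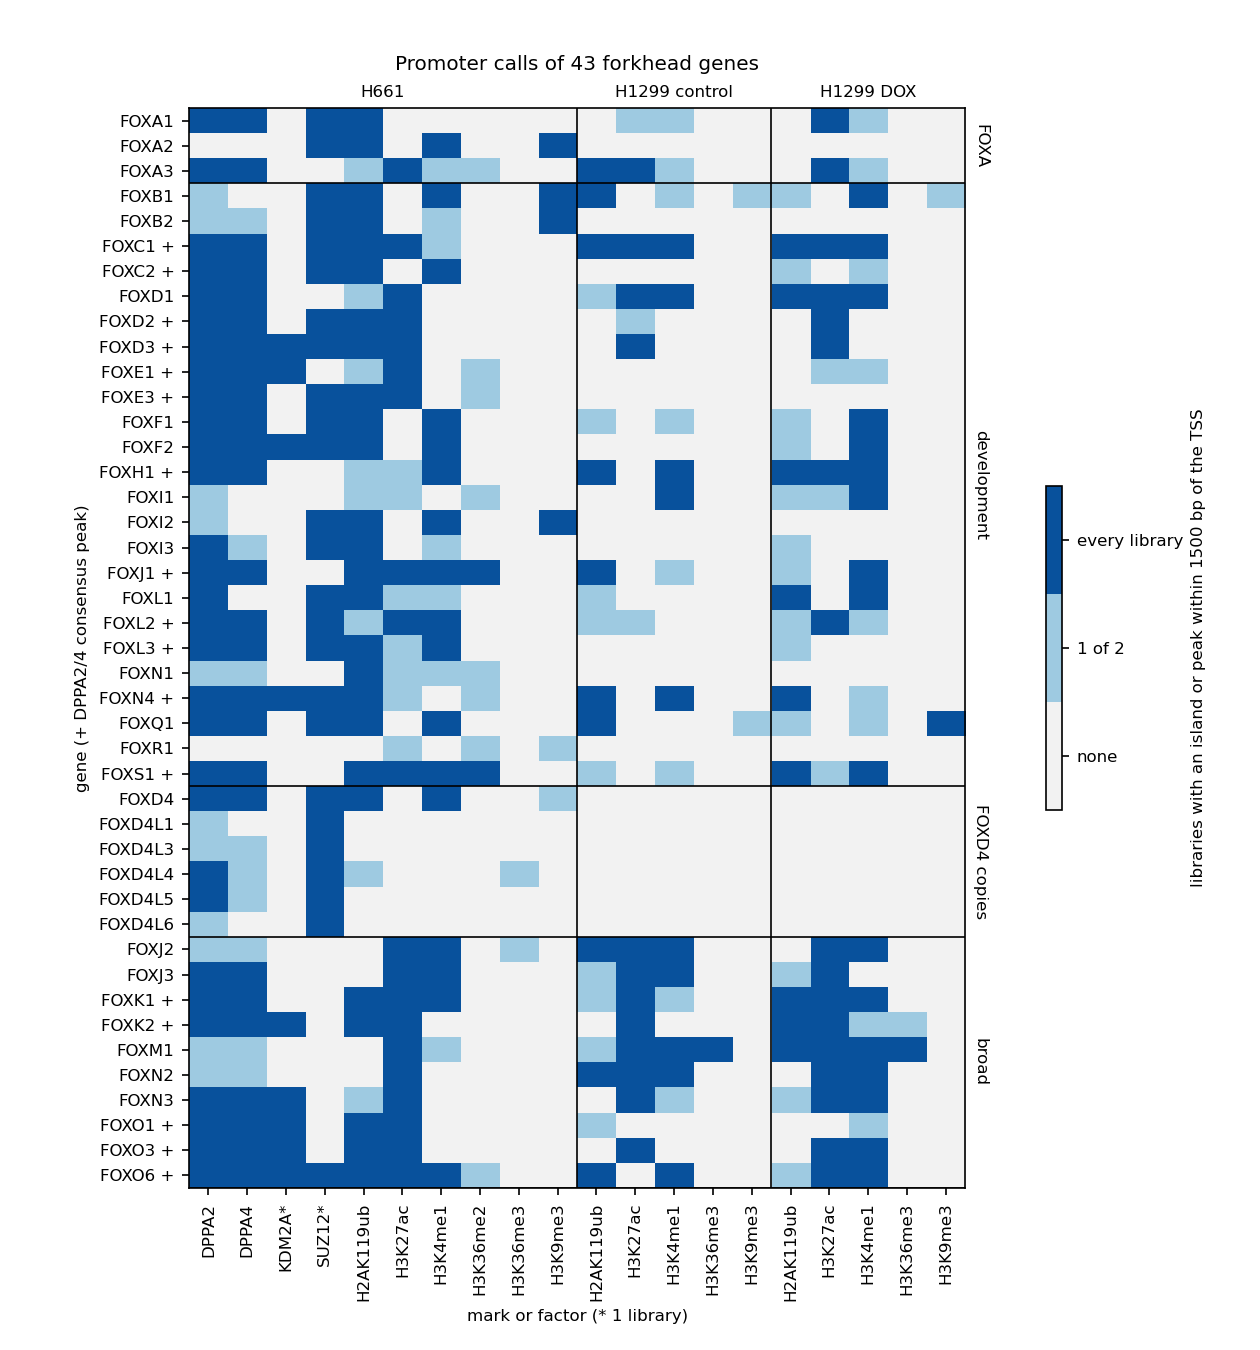
Promoter calls of 43 forkhead genes (y axis, ordered by role, with + for a DPPA2/4 consensus peak) for each mark or factor and cell group (x axis, with an asterisk for a single library). Dark cells have an island or peak in every library, light cells in 1 of 2 and pale cells in none: the 6 FOXD4 copies form a block with SUZ12 in all rows and no H3K27ac, and the broadly expressed genes form a block with H3K27ac in all 10 rows in H661.

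Polycomb islands also reached further from forkhead genes. SUZ12 islands covered on average 18.3% of the forkhead flanks against 4.12% over all genes. H2AK119ub islands covered 12.1% and 21.8% (replicates 1 and 2) against 3.32% and 10.1%. H3K36me3 went the other way, with 5.94% and 2.70% of forkhead flanks against 18.1% and 9.84%. In 500-bp bins more than 5 kb from the TSS, a SUZ12 island lay at 16.3% of forkhead genes against 4.33% of all genes. The flanks are not independent of each other, since FOXC2 and FOXL1 lie 11720 bp apart, FOXE3 and FOXD2 21759 bp, FOXF1 and FOXC2 56302 bp and FOXQ1 and FOXF2 77478 bp.

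**Figure D3:**
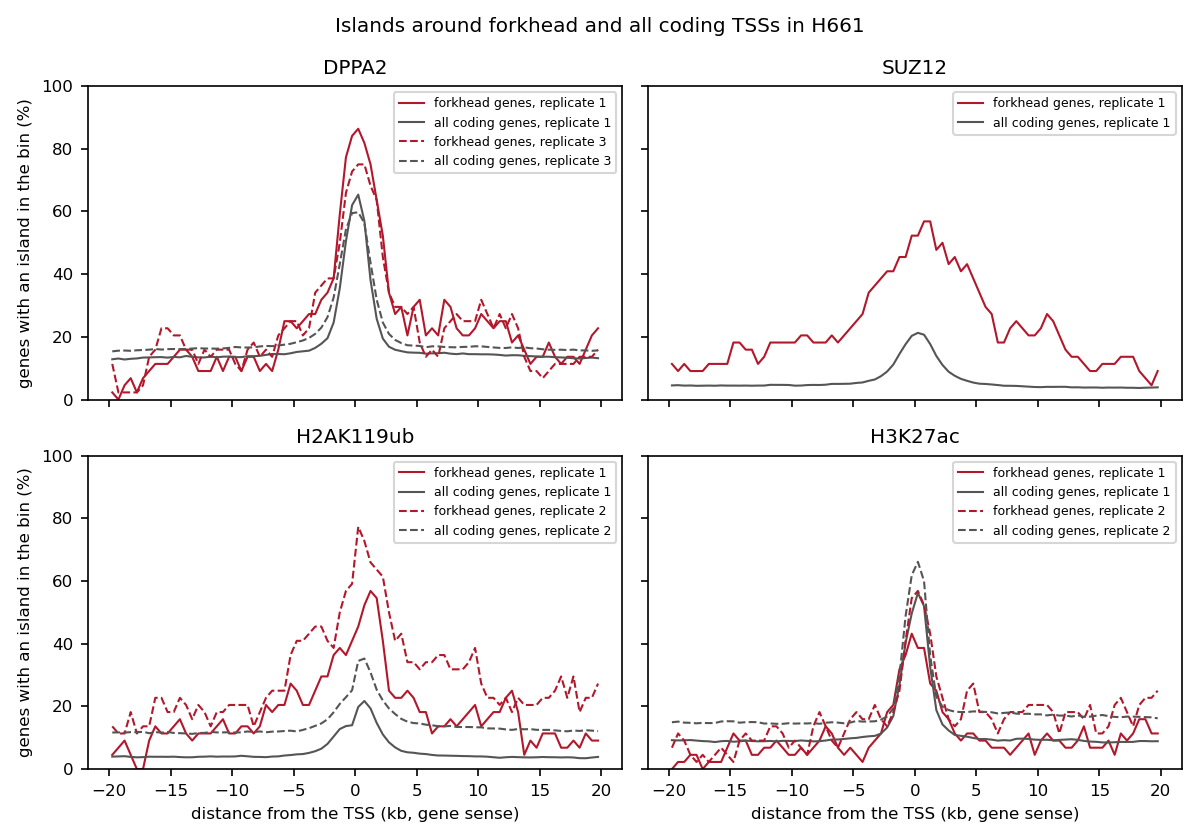
Share of genes with an island (y axis, percent) in 500-bp bins by distance from the TSS in the sense of the gene (x axis, kb) for DPPA2, SUZ12, H2AK119ub and H3K27ac in H661, with forkhead genes in red, all coding genes in grey and a line per replicate. The SUZ12 lines peak at 56.8% of forkhead and 21.3% of all genes and the forkhead line stays above the other in the bins beyond 5 kb (mean 16.3% against 4.33%), while the H3K27ac lines peak lower for forkhead genes (43.2% and 56.8%) than for all genes (56.2% and 66.1%).

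Among the class A genes, FOXA1 and FOXA2, both pioneer factors of lung and gut epithelium, carried Polycomb marks and no H3K27ac in H661. The SUZ12 peak was 4.99-fold over input at FOXA1 and 8.70-fold at FOXA2. H2AK119ub reads were 35 and 68 at FOXA1 and 75 and 340 at FOXA2 in replicates 1 and 2, and H3K27ac was listed at 0 in both libraries for both genes. FOXA2 also carried H3K9me3 (67 and 202 reads) and H3K4me1 (25 and 80 reads), and no DPPA2 or DPPA4 peak lay at its promoter in any library. FOXA1 had a peak in all 4 DPPA libraries, at 9.85- and 5.24-fold for DPPA2 and 6.41- and 5.39-fold for DPPA4, but these did not overlap enough to form a consensus peak. FOXA3, the liver-enriched member, was the class A gene with an H3K27ac call in H661, at 50 and 106 reads, but these islands covered only 9.16% and 12.5% of its promoter window, at the end that overlaps the SYMPK promoter.

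In H1299, an H3K27ac island lay at that same SYMPK end of the FOXA3 window (chr19:45862201-45863200) in all 4 libraries, with 28 and 25 reads in control and 76 and 30 in DOX. FOXA1 had 11 and 0 H3K27ac reads in control and 62 and 8 in DOX, and only the second control library lacked an island. FOXA2 had no island of any of the 5 marks at its promoter in any H1299 library.

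The developmental regulators held most of the Polycomb marks. SUZ12 and H2AK119ub without H3K27ac were called at 14 of the 44 genes, against 9.33% of all promoters. Besides FOXA1, FOXA2 and FOXD4, these were FOXB1, FOXB2, FOXC2, FOXF1, FOXF2, FOXI2, FOXI3, FOXL1, FOXL3, FOXN4 and FOXQ1. The SUZ12 fold was highest at FOXF1 (30.3-fold) and FOXF2 (25.1-fold), which act in the mesenchyme of lung and gut, and lowest among the 25 peaks at FOXN4 (3.57-fold), a factor of the developing retina. FOXQ1 reached 20.0-fold, FOXL3 19.6-fold, FOXI3 18.8-fold and FOXB2 16.9-fold.

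SUZ12 islands covered 75.3% of the flank of FOXF1, 75.2% of FOXF2, 73.1% of FOXL1 and 63.0% of FOXB1. H2AK119ub reads were 299 and 1135 at FOXF1 and 374 and 1286 at FOXF2. The second replicate held more reads at each, as it did over the whole library. FOXB1, FOXB2, FOXI2 and FOXA2 carried H3K9me3 on top of SUZ12 and H2AK119ub, with 12 and 18, 13 and 19, 47 and 167, and 67 and 202 H3K9me3 reads, so that FOXI2 and FOXA2 were above FOXB1 and FOXB2 in both replicates.

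A second group, mostly of developmental genes, carried Polycomb marks together with H3K27ac. FOXC1, FOXD2, FOXD3, FOXE3 and the class O gene FOXO6 had SUZ12, H2AK119ub and H3K27ac at once, a state of 2.8% of all promoters, and all 5 were DPPA2/4-bound, against 67.2% of all promoters in that state. FOXL2, a regulator of ovarian granulosa cells, had SUZ12 (5.27-fold) and H3K27ac (32 and 173 reads) and was also bound. H2AK119ub at FOXL2 was listed at 0 in replicate 1 and 267 reads in replicate 2, so it was not called. FOXC1, which acts in eye and vessel development, had 84 and 254 H3K27ac reads and a SUZ12 fold of 18.8. FOXD2 had 14 and 110 H3K27ac reads, 80 and 118 H2AK119ub reads and a SUZ12 fold of 19.0. In cells of one line, marks called at one promoter may lie on different alleles or in different cells, which ChIP-seq of a population cannot tell apart.

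FOXJ1, the master regulator of motile cilia, and FOXS1 shared 1 combination of calls, DPPA2/4 with H2AK119ub, H3K27ac, H3K4me1 and H3K36me2. FOXJ1 had 57 and 61 H3K27ac reads and 55 and 385 H2AK119ub reads, and its H3K36me2 reads were 22 and 302. FOXD1, of the kidney stroma, and FOXE1, of the thyroid, had H3K27ac with neither SUZ12 nor H2AK119ub called, at 55 and 198 and at 67 and 184 reads. H2AK119ub was listed at 0 at both genes in replicate 1, and at 60 (FOXD1) and 64 (FOXE1) reads in replicate 2. FOXD1 had no SUZ12 narrow peak, but an EPIC2 island of the same library with a log2 fold of 1.59 covered 93.3% of its promoter (219 reads). FOXN1 had H2AK119ub alone (20 and 204 reads), FOXH1, the SMAD partner of nodal signalling, had DPPA2/4 and H3K4me1 (21 and 123 reads), and FOXI1 and FOXR1 had no call at all.

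FOXD4 and its 5 near-identical copies (FOXD4L1, FOXD4L3, FOXD4L4, FOXD4L5 and FOXD4L6) each had a SUZ12 peak, of 20.9-, 17.8-, 14.6-, 14.1-, 14.5- and 13.4-fold in that order. Of the 50-base words in a copy's promoter window, 55.9% (FOXD4) to 93.9% (FOXD4L3) recurred in the window of another copy and 0% in that of any other forkhead gene. Reads could thus be placed on the wrong copy, and the 6 peaks are not 6 separate observations. By EPIC2 the SUZ12 islands held 1598 reads at FOXD4, 33 at FOXD4L1, 38 at FOXD4L3 and none at the other copies. H3K27ac was listed at 0 at all 6 in all 6 H3K27ac libraries of both lines. Islands of any histone mark were seldom listed at the 5 FOXD4L copies. FOXD4L5 had no histone island at its promoter and no island in its flank in any of the 38 libraries. A 0 at these copies therefore need not mean that the mark was absent.

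The genes grouped as broadly expressed differed from the developmental ones in H3K27ac and in SUZ12 peaks. H3K27ac was called in H661 at all 10 (FOXJ2, FOXJ3, FOXK1, FOXK2, FOXM1, FOXN2, FOXN3, FOXO1, FOXO3 and FOXO6), against 10 of 25 developmental genes, 1 of 3 class A genes and 0 of 6 copies. It was called at 59.2% of all promoters and 75.5% of CpG-island promoters. FOXK1 and FOXK2, widely expressed repressors linked to metabolism, and FOXN2 had the highest densities of the 10, at 51.7 and 186, 47.7 and 140, and 46.4 and 106 reads per kb. These densities are not corrected for input. Input reads per kb in the same islands were 7.5 and 7.59 at FOXK1, 5 and 4.64 at FOXK2, and 4.8 and 4.29 at FOXN2. FOXM1 had 31 and 196 H3K27ac reads. SUZ12 was called at FOXO6 (7.84-fold), which unlike FOXO1 and FOXO3 is known mainly from the brain. SUZ12 was thus called at 1 of the 10, against 15.8% of all promoters and 19.2% of CpG-island promoters. That count holds for narrow peaks, since SUZ12 islands by EPIC2 covered 86.1% of the FOXO3 promoter (86 reads, log2 fold 1.49) and 55.3% of the FOXO1 promoter (53 reads, log2 fold 1.31). H2AK119ub was called at 5 of the 10, against 25.1% of all promoters and 30.2% of CpG-island promoters. These were FOXO6, FOXO3, FOXK1, FOXO1 and FOXK2, and all 5 were DPPA2/4-bound, against 66.9% of all promoters with H3K27ac and H2AK119ub.

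DPPA2 and DPPA4 were called separately at 31 and 27 of 44 forkhead promoters, against 43.3% and 36.9% of all promoters, and at 30 and 26 of the 42 with a CpG island, against 56.9% and 48.8% of all CpG-island promoters. A peak of each of the 4 libraries lay at 27 promoters, of 1 to 3 libraries at 15 and of none at 2 (FOXR1 and FOXA2). The 18 bound promoters held 20 consensus peaks, 15 of which spanned the TSS, with widths of 785 to 3537 bp and a median of 1926.5 bp against 1195 bp over all 8825 consensus peaks. At FOXA1, FOXA3, FOXD1, FOXD4, FOXF1, FOXF2, FOXJ3, FOXN3 and FOXQ1, peaks in all 4 libraries gave no consensus peak.

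FOXE1 had a DPPA2 peak of 50.6-fold in replicate 1 and 27.9-fold in replicate 3, and DPPA4 peaks of 14.5-fold in both libraries. FOXL2 followed with 45.7, 21.1, 14.0 and 17.3, and FOXD2 with 44.7, 18.4, 16.9 and 18.9, in the order DPPA2 replicates 1 and 3, DPPA4 replicates 2 and 3. These 3 had the highest folds of the family in every one of the 4 libraries, and their own order changed between libraries. FOXH1 had 25.7, 15.6, 6.64 and 9.88, FOXO6 18.6, 14.6, 13.3 and 11.2, and FOXE3, a lens factor, 16.8, 14.8, 8.71 and 10.6.

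In the remaining 12 bound genes the folds were lower and close together. DPPA2 replicate 1 ranged from 7.87 at FOXN4 to 14.6 at FOXK2 and 15.2 at FOXS1, with FOXC1, FOXC2, FOXD3, FOXJ1, FOXK1, FOXL3, FOXO1 and FOXO3 between 9.91 and 14.3. FOXF1, which had no consensus peak, reached 17.3, 9.64, 8.07 and 7.44, above all of these 12 in DPPA2 replicate 1 and in replicate 3. FOXM1 had peaks in 1 DPPA2 library (7.38) and 1 DPPA4 library (4.98).

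**Figure D4:**
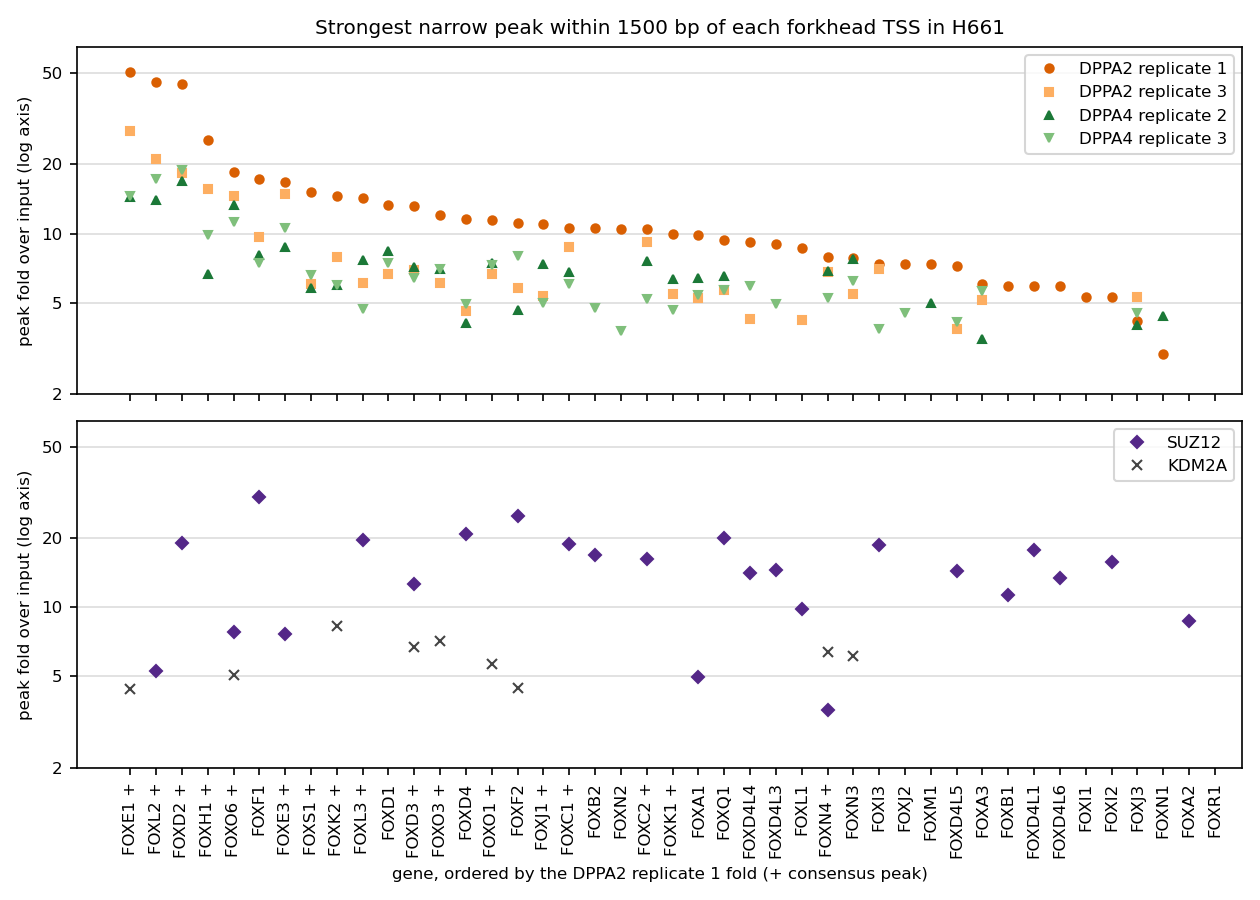
Fold over input of the strongest narrow peak within 1500 bp of the TSS of 43 forkhead genes in H661 (y axis, log scale), with genes ordered by DPPA2 replicate 1 (x axis, + for a consensus peak), for the 4 DPPA2 and DPPA4 libraries (top) and the SUZ12 and KDM2A libraries (bottom). FOXE1, FOXL2 and FOXD2 stand above the other genes in the upper panel (50.6, 45.7 and 44.7 in DPPA2 replicate 1), and SUZ12 peaks up to 30.3-fold occur over the whole range of DPPA2 folds.

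KDM2A peaks lay at 7 of 18 bound and 2 of 26 unbound forkhead promoters, beside 28.3% and 4.34% of all bound and unbound promoters. The folds were 8.27 at FOXK2, 7.15 at FOXO3, 6.69 at FOXD3, 6.39 at FOXN4, 5.69 at FOXO1, 5.05 at FOXO6 and 4.42 at FOXE1, and the unbound genes were FOXN3 (6.13) and FOXF2 (4.46). SUZ12 and DPPA2/4 were called together at 9 of 44 promoters against 4.1% of all.

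DPPA2/4 binding differed between the chromatin classes of the family. All 13 forkhead promoters with H3K27ac and either SUZ12 or H2AK119ub were bound, against 65.9% of all promoters of that class. Of the 8 with H3K27ac and neither Polycomb mark called (45.1% of all promoters were in that class), 1 was bound, FOXE1, against 31.5%. Among the 8, FOXA3, FOXD1, FOXE1 and FOXN3 had an H2AK119ub island in replicate 2 alone (78, 60, 64 and 25 reads). That replicate held 6649708 reads in islands against 1318183 in replicate 1. Of the 20 with SUZ12 or H2AK119ub and no H3K27ac, 3 were bound (FOXC2, FOXL3 and FOXN4), against 16.7%. The 20 included the 5 FOXD4L copies, at which histone islands were seldom listed for any mark. The 3 genes with none of these marks (26.1% of all promoters) included 1 bound gene, FOXH1. This order rested on the narrow-peak consensus: with EPIC2 islands of the same DPPA libraries the bound counts were 10 of 13, 8 of 8 and 11 of 20. With an overlap of 50% of each peak in place of 25% they were 7, 1 and 0. Were SUZ12 called from EPIC2 islands, FOXD1, which was not bound, would carry H3K27ac with a Polycomb mark.

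In H1299 the same family carried fewer calls. In control cells H3K27ac was called at 13 of 44 forkhead promoters (39.3% of all), H2AK119ub at 10 (9.22%), H3K4me1 at 10 (38.7%), H3K36me3 at 1, FOXM1 (7.68%), and H3K9me3 at 0 (0.199%). The 13 H3K27ac promoters were all among the 21 called in H661, and 37.2% of all promoters were called for H3K27ac in both lines. Among the 13 were FOXA3, FOXC1, FOXD1, FOXD3, FOXJ2, FOXJ3, FOXK1, FOXK2, FOXM1, FOXN2, FOXN3 and FOXO3. For H2AK119ub 6 forkhead promoters were called in both lines, against 5% of all promoters.

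Counted as an island in both H661 libraries and in neither control H1299 library, 6 promoters had H3K27ac in H661 only (12.1% of all promoters): FOXE1, FOXE3, FOXJ1, FOXO1, FOXO6 and FOXS1. All 6 were DPPA2/4-bound in H661, as were 44.8% of all promoters with H3K27ac in H661 only. H2AK119ub was on in H661 only at 16 (11.7%), H3K4me1 at 8 (7.45%), H3K9me3 at 4 (3.79%; FOXA2, FOXB2 and FOXI2 among them) and H3K36me3 at 1 (3.01%). In the other direction H3K27ac changed at 0 (0.769%), H2AK119ub at 2 (2.08%; FOXJ2 and FOXN2), H3K4me1 at 4 (10.7%; FOXD1, FOXI1, FOXN2 and FOXN4), H3K36me3 at 1 (1.77%; FOXM1) and H3K9me3 at 0 (0.141%). At FOXM1 the H3K36me3 island of control replicate 2 covered only 0.9% of the promoter window. H661 libraries held more reads in islands, and the part of depth in these counts was not tested. DPPA2 and DPPA4, copy number, genetic background and experiment cannot be told apart between the lines.

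The difference between the lines could be tested by read counts only where islands covered at least 50% of a joined region in all 4 libraries, which held for 9 forkhead regions of 160 joined at promoters and 767 at flanks. By edgeR's quasi-likelihood test with Benjamini-Hochberg adjustment over all regions of a mark, 5 of these 9 passed an adjusted p of 0.05 and a log2 change of 0.5. Among the 7 tested for H3K27ac, 3 were lower in H661 (11.6% of all regions tested) and 0 higher (10.1%). A region in the FOXM1 flank (chr12:2889601-2890700), which also covers the TULP3 promoter, had 48 and 45 reads in control H1299 and 14 and 68 in H661. After scaling to the reads in all regions tested for the mark it differed by a log2 change of -1.30 ± 0.31 (SE, n = 2 per line, edgeR adjusted p = 0.0066).

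The FOXJ2 promoter (chr12:8031801-8034300) had 81 and 67 H3K27ac reads in control H1299 and 63 and 93 in H661, a log2 change of -0.89 ± 0.26 (edgeR adjusted p = 0.0207). A second region in the FOXJ2 flank (chr12:8025301-8027800) had 130 and 96 against 87 and 190 reads (log2 -0.73 ± 0.21, edgeR adjusted p = 0.0208). Raw reads of the lines overlapped in these regions. The FOXM1 and FOXJ2 regions called lower all lie on chromosome 12, and copy number there was not tested. The log2 changes are those after scaling to the reads in all regions tested for H3K27ac, so they are relative to those regions. DESeq2 gave adjusted p-values of 0.0857 and 0.0966 for the FOXJ2 regions, which then missed the threshold. The promoter call was also lost without control replicate 1 (log2 -0.84, edgeR adjusted p = 0.0671) or H661 replicate 2 (log2 -0.47, edgeR adjusted p = 0.299), and so was the flank call (edgeR adjusted p = 0.171 and 0.127). The FOXN2 promoter was not called, at a log2 change of 0.63 ± 0.24 (edgeR adjusted p = 0.0629).

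For H3K4me1 both regions tested were higher in H661 (6.42% of all regions tested were higher and 7.23% lower). The FOXS1 promoter region (chr20:31833101-31846000) had 291 and 400 reads in control H1299 and 558 and 834 in H661 (log2 0.77 ± 0.24, edgeR adjusted p = 0.0172). The FOXK2 flank region (chr17:82521801-82539400) had 239 and 371 against 537 and 628 reads (log2 0.72 ± 0.24, edgeR adjusted p = 0.0302). In raw reads both H661 libraries lay above both H1299 libraries in each region. Over all H3K4me1 islands the H661 libraries also held more reads, at 2807805 and 3109253 against 1123702 and 1685486. Both calls were lost without either control library: leaving out replicate 1 gave log2 changes of 0.46 and 0.33 (edgeR adjusted p = 0.581 and 0.710), and leaving out replicate 2 gave 0.76 and 0.80 (edgeR adjusted p = 0.437 and 0.422). Input reads per kb also rose, from 2.88 and 2.96 to 7.68 and 7.79 at FOXS1 and from 1.91 and 2.13 to 7.11 and 7.30 at FOXK2. Per island-covered length the log2 changes were 0.37 (edgeR adjusted p = 0.187) and 0.20 (edgeR adjusted p = 0.595), so neither call held on that scale.

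The DOX comparison asked what DPPA2 and DPPA4 do when switched on in a single line, although an effect of doxycycline itself cannot be told apart from theirs. After 7 days of DOX, H3K27ac was called at 18 of 44 forkhead promoters (52.5% of all), H2AK119ub at 9 (12.2%), H3K4me1 at 17 (45.8%), H3K36me3 at 1 (9.92%) and H3K9me3 at 1, FOXQ1 (0.173%). The calls for all genes rose too, and the deep H3K27ac library of DOX replicate 1 was 1 of the 2 behind the H3K27ac count.

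Between groups without overlap, H3K27ac was on with DOX only at 2 promoters (5.09% of all) and off at 0 (0.0837%). FOXO6 had no island in either control library and 31 and 11 reads in DOX. FOXH1 had none in its window in control and 222 and 93 reads in DOX, but the DOX islands reach over the PPP1R16A promoter, where control replicate 2 also had an island (26 reads in the joined region). Both had an island in the DOX library of ordinary depth as well. H2AK119ub was on at 1 promoter (3.19%), FOXK2, with 14 and 13 reads in DOX. It was off at 3 (2.19%), FOXA3, FOXJ2 and FOXN2, which had 14 and 19, 15 and 20, and 14 and 15 reads in control. At each of these 4 promoters the islands of the 2 libraries did not overlap each other, so no single place gained or lost the mark in both, and at most 20 reads stood behind each library.

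H3K4me1 was on with DOX only at 3 promoters (3.34%) and off at 1 (1.14%). FOXF2 had 16 and 9 reads in DOX, FOXL1 9 and 18 and FOXO3 164 and 99, with none listed in control, while FOXJ3 had 13 and 22 reads in control and none in DOX. The 2 DOX islands at FOXF2 did not overlap each other. At FOXL1 and FOXO3 control islands lay just beyond the promoter window. The joined FOXL1 region had 30 and 49 reads in control and 55 and 32 in DOX, and was not tested. The joined FOXO3 region had 99 and 139 reads in control and 164 and 124 in DOX, with a log2 change of 0.15 ± 0.19 (edgeR adjusted p = 0.890). H3K36me3 changed at 0 promoters in both directions (2.05% on, 0.759% off), as did H3K9me3 (0.0366% on, 0.0994% off).

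At several forkhead promoters the H3K27ac reads of DOX stood above control in the deep library alone or mainly. FOXC1 had 23 and 36 reads in control and 261 and 51 in DOX, FOXD2 12 and 0 against 112 and 17, and FOXD3 21 and 9 against 117 and 10. FOXE1, the gene with the strongest DPPA2 peak in H661, had none in control and 37 and 0 in DOX. FOXJ3 had 49 and 58 reads in control and 158 and 50 in DOX. The reads of DOX replicate 2 lay within the control range at FOXD3, FOXE1 and FOXJ3, and above it at FOXC1 and FOXD2.

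No forkhead region that could be tested passed the test with DOX. Islands covered at least 50% of 22 forkhead regions in all 4 libraries (8 at promoters and 14 in flanks, of 14 genes), among 115 promoter and 465 flank regions joined. By edgeR's quasi-likelihood test with the replicate number as a block, 0 of 22 passed, 3 had an unadjusted p under 0.05, and DESeq2 also called 0. Over all regions tested, the percentages called were 0.222 higher and 0.0296 lower for H3K4me1, 0.187 higher and 0.078 lower for H3K36me3, and 0 in both directions for H3K27ac, H2AK119ub and H3K9me3. Of the forkhead regions 10 were tested for H3K4me1, 5 for H3K27ac, 5 for H3K36me3, 2 for H2AK119ub and 0 for H3K9me3.

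Over the 20 regions shown, the log2 changes ran from -0.44 to 0.50, with 12 above and 8 below 0. The FOXF1 flank had a log2 change of 0.50 ± 0.23 for H2AK119ub (SE, n = 2 per group, edgeR adjusted p = 0.706). The smallest adjusted p belonged to H3K4me1 at FOXS1 (log2 0.32 ± 0.12, edgeR adjusted p = 0.319). With 2 libraries per group, SEs of 0.11 to 0.34 on the log2 scale limit what could be detected, and regions without islands in every library were not tested.

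**Figure D5:**
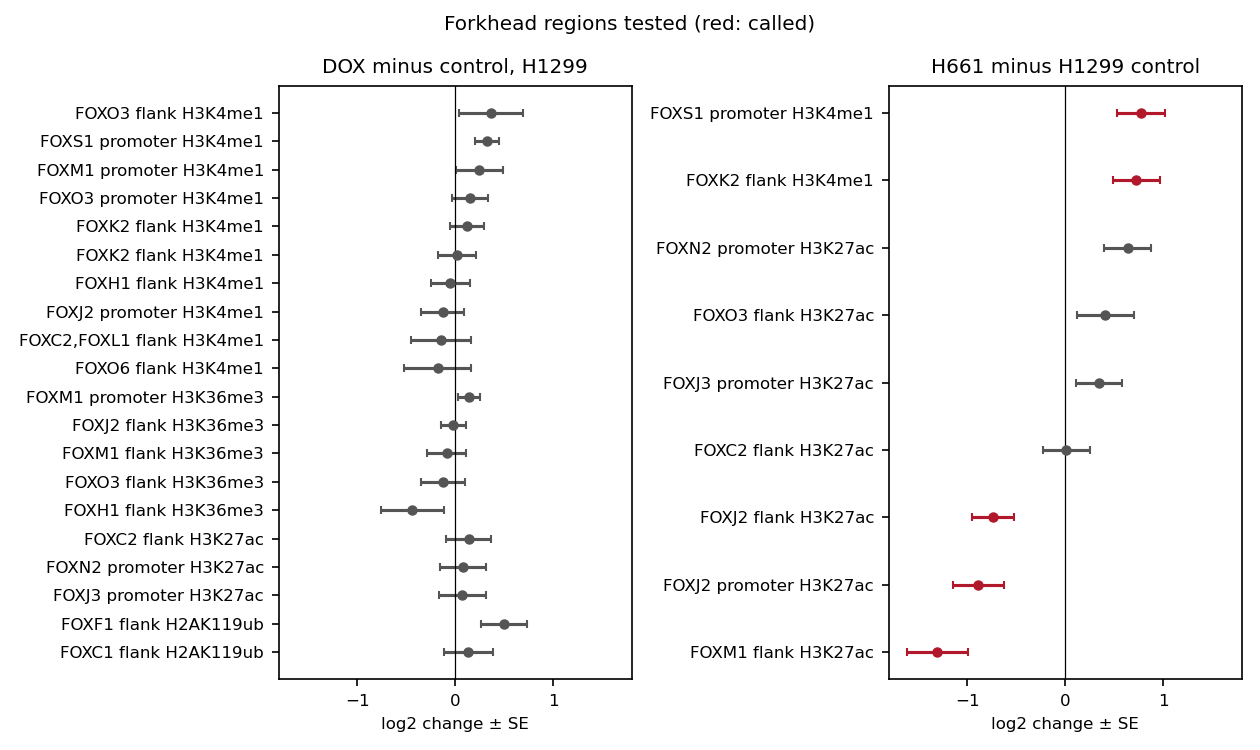
Log2 change ± SE (x axis) of the forkhead regions tested by edgeR (y axis, gene, place and mark; n = 2 libraries per group), for DOX minus control in H1299 (left) and H661 minus H1299 control (right), with red for regions called. The 20 DOX regions shown lie between -0.44 and 0.50 with none called, and 5 of the 9 regions differ between the lines, from -1.30 at FOXM1 to 0.77 at FOXS1.

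FOXM1 itself, the mitotic regulator, had H3K27ac in every library of both lines and no SUZ12 or H2AK119ub call in H661. H3K27ac reads were 31 and 196 in H661, 186 and 150 in control H1299 and 495 and 139 in DOX. H3K36me3 at its promoter was called in H1299 (571 and 113 reads in control, 862 and 45 in DOX) and not in H661. In control these islands covered 30.0% and 0.9% of the promoter window, so the call rested on a bare overlap in replicate 2. H3K36me3 islands covered 71.3% and 54.3% of its flank in control H1299 and 47.0% and 20.0% in H661.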

How the data were processed

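Per the methods, the authors trimmed single-end ChIP-seq reads (Trim Galore 0.6.6), aligned them to hg38 (BWA 0.7.13), processed them with SAMtools 1.9 and Picard 2.6.0, and called EPIC2 islands for histone ChIPs and MACS2 narrow peaks for DPPA2, DPPA4 and SUZ12. The deposited lists hold EPIC2 islands for all 38 libraries and narrow peaks for 6, 1 of them KDM2A, whose caller is not given in the sources used here. Histone ChIPs were crosslinked with 1 agent and factor ChIPs with 2. The deposited islands give read counts of ChIP and input, a log2 fold, and a score with its p-value and FDR, and the deposited peaks give fold enrichment over input as a ratio, -log10 p and -log10 q values and a score. Only islands and peaks on standard chromosomes at an FDR under 0.05 and a log2 fold over 1 were kept. No blacklist was applied here, and H3K4me3 and H3K27me3 were not analysed here.

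A consensus DPPA2/4 peak needed more than 25% reciprocal overlap through both DPPA2 and both DPPA4 peak lists. For the tests, overlapping islands from a mark's 4 libraries were merged to regions, ChIP counts were summed, and regions covered over at least 50% in every library were fitted with edgeR 4.0.16 (quasi-likelihood, TMM, R 4.3.3), with the replicate number as a block for DOX and without it between lines. P-values were adjusted by Benjamini-Hochberg over all regions of a mark (DOX 16681, lines 5405), and a call needed a log2 change of 0.5 or more in size and an adjusted p under 0.05. Library sizes for the scaling were the reads in the fitted regions of a mark, so a shift shared by most of them would not show. DESeq2 1.42.0 was the alternative tool. The SEs printed with edgeR values were back-calculated, as the size of the log2 change over the square root of the F statistic. The edgeR step was tested on simulated data. Libraries with no island at a region have no count, and 17.9 to 62.8% of H1299 islands had 0 input reads, against at most 9.69% in H661 histone libraries.

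Coordinates are hg38. Gene starts were those of GENCODE canonical transcripts, and promoter sequences came from RefSeq on GRCh38.p14. Genes named with values were those bound by DPPA2/4, those with a region called, the 3 with the highest H3K27ac reads per kb in each role group, and FOXA1, FOXA2, FOXJ1, FOXF1, FOXM1 and FOXK2, and others were named by the class of marks they fell in after their values were seen. The members and lists were chosen with earlier results of these data known. Replicate-1 deviations of the groups compared correlated at 0.263 (H3K27ac), 0.105 (H2AK119ub), 0.0393 (H3K4me1), 0.0770 (H3K36me3) and 0.0567 (H3K9me3) for DOX. The block was kept for DOX because the study's methods use it. Results of 1 gene are included in the counts and not reported here by name.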

Additional observations from a re-analysis of the deposited data

How the results depend on the processing

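Promoter counts depended on the window, the fold threshold and the agreement of replicates. With a window of 500 bp to each side, the forkhead counts were 5 for control H2AK119ub, 3 for control H3K4me1, 4 for DOX H2AK119ub, 10 for DOX and for H661 H3K4me1, 1 for H661 H3K36me2, and 0 for H3K36me3 in control, DOX and H661 and for DOX H3K9me3, and 3 promoters lost a mark between the lines. With a log2 fold above 2 they were 2 for control H2AK119ub, 7 for control H3K27ac, 5 for control H3K4me1, 1 for DOX H2AK119ub, 8 for DOX H3K4me1, 11 for H661 H3K4me1, and 0 for H661 H3K36me2, for H661 and control H3K36me3 and for DOX H3K9me3. With any annotated TSS H3K36me3 was called at 4 in control and DOX and 5 in H661, and H661 H3K36me2 at 4. Leaving out each replicate in turn gave 12 to 17 for control H2AK119ub, 10 to 18 for control H3K4me1, 0 to 2 for control H3K9me3, 13 to 18 for DOX H2AK119ub, 1 to 2 for DOX H3K36me3 and H3K9me3, 2 to 10 for H661 H3K36me2 and 1 to 3 for H661 H3K36me3. DPPA2/4 binding was called at 8 promoters with 50% overlap, 31 with EPIC2 islands and 18 to 22 leaving out each replicate. By class, in settings chosen after seeing the data, 50% overlap left 7 of 13 with H3K27ac and a Polycomb mark and 0 of 20 with a Polycomb mark alone, EPIC2 islands gave 8 of 8 with H3K27ac alone and 11 of 20 with a Polycomb mark alone, and leaving out each replicate gave 1 to 3 of 8 and 3 to 6 of 20.

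With no coverage minimum, a library without an island enters as 0 counts. DOX then gave 97 of 228 forkhead regions for H2AK119ub and 18 of 35 for H3K9me3. Over all regions 16372 were higher and 20795 lower of 78272, and 14750 and 13770 of 52299. The lines gave 82 of 254 for H3K4me1, 44 of 224 for H3K27ac and 41 of 266 for H2AK119ub. All regions gave 21073 higher and 11313 lower of 137467, 16819 and 3942 of 130462, and 11369 and 1617 of 146214. The lines also gave 24 of 110 for H3K9me3 and 4 of 73 for H3K36me3. All regions gave 32507 and 2962 of 183467, and 4279 and 2662 of 116767. An island required in every library, with no coverage minimum, was a setting chosen after seeing the data. The lines then gave 6 of 22 for H3K27ac, 4 of 18 for H3K4me1, 3 of 16 for H2AK119ub and 3 of 6 for H3K36me3. Over all regions these were 1002 higher and 944 lower of 8423, and 1008 and 811 of 8518. For H2AK119ub and H3K36me3 they were 206 and 107 of 1976, and 1054 and 654 of 13093. DESeq2 gave 1 of 7 for H3K27ac between the lines, and counts per covered length gave 0 of 2 for H3K4me1. Over all regions DESeq2 called 158 higher and 192 lower of 2899, and counts per covered length 25 and 19 of 1121. Leaving out each replicate gave 1 to 6 for H3K27ac, 0 to 2 for H3K4me1 and 0 to 3 for H3K36me3 between the lines. The FOXM1 flank region was called in all 9 alternatives (log2 -1.96 to -0.78). Of the values recomputed for single regions 27 kept their side of the threshold, 18 no longer passed and 0 reversed. The causes were not tested.

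The replicate block changed no forkhead count: with no replicate block DOX gave 0 for every mark, and with the replicate block the lines gave 3 for H3K27ac and 2 for H3K4me1. Over all regions the DOX calls were 17 with and 0 without the block for H3K4me1 and 17 and 10 for H3K36me3.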

Other observations

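The genes that forkhead factors work with were taken from a list of 21 partners and upstream regulators, among them the MuvB complex with which FOXM1 acts at mitotic promoters, the PI3K and AKT kinases that exclude class O factors from the nucleus, and the SMADs. H3K27ac was called at 20 of 21 in H661, 17 of 21 in control H1299 and 19 of 21 in DOX, against 59.2%, 39.3% and 52.5% of all promoters, and DPPA2/4 bound 10 of 21, against 27.2%. Of the 17 regions of these genes tested with DOX, 0 were called by edgeR, against 0.204% of all regions tested over the 5 marks. Of 8 tested between the lines, 1 was called, against 17.1% of all. H3K4me1 in a region at ASXL1 (chr20:32359601-32369500), a subunit of the H2AK119ub deubiquitinase, was higher in H661 (log2 1.04 ± 0.25, edgeR adjusted p = 0.0019). Another H3K4me1 region at ASXL1 (chr20:32351901-32357800) was not called (log2 0.27 ± 0.26, edgeR adjusted p = 0.492). Nor was H3K27ac at ASXL1 (log2 0.33 ± 0.21, edgeR adjusted p = 0.262). The value of the called region with a library left out was not recorded. The FOXS1 and FOXK2 calls of H3K4me1 were lost without either control library.

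Of 10 known target genes of FOXM1 and class O factors, 4 were DPPA2/4-bound in H661, and H3K27ac was called at 7 in H661, 7 in control H1299 and 8 in DOX, beside the same shares of all promoters. With DOX 0 of 10 regions tested were called by edgeR. Between the lines 1 of 5 was called, against 17.1% of all regions tested. H3K27ac at CDKN1B (chr12:12714301-12727200), the cell-cycle inhibitor p27 and a class O target, was lower in H661 (log2 -0.87 ± 0.19, edgeR adjusted p = 0.0033). The value of this CDKN1B region with a library left out was not recorded. CDKN1B lies on the same chromosome as the FOXM1 and FOXJ2 regions called lower in H661, and copy number there was not tested.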
